A study of Mus musculus with 66 samples.

Results

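Ion channels and neurotransmitter receptors were examined in the mouse cerebellum as the genes whose symbol starts with a channel or receptor prefix (Kcn, Cacn, Clcn, Hcn, Scn with a digit, Gria, Grik, Grin, Grid, Grm, Gabr, Glra, Chrn, Chrm, Trpc, Trpm or Trpv), counting probes annotated to a single symbol. The rule found 15 genes on 17 probes, among 4209 genes with a single symbol and 7782 features tested in all. A further 2 probes that carry several symbols also match a prefix and were not used. Of the 15 genes, 9 belong to potassium channels (Kcnd2, Kcnd3 and Kcnq1 form voltage-gated pores, Kcnab3, Kcne3 and Kcnmb1 are auxiliary subunits, and Kcnj12, Kcnk1 and Kcnn2 form pores that are not voltage-gated). The others are the sodium channel subunit Scn2b, the chloride transporter Clcn5, the receptor subunits Gabra3 and Grik1, and 2 genes that share a prefix without encoding a channel: Grina, a membrane protein named for its association with glutamate receptors, and Kcnq1ot1, a noncoding RNA. The label therefore fits 13 of the 15, with Clcn5 counted as a member of the chloride channel family. No calcium channel, HCN, AMPA, NMDA, delta or metabotropic glutamate receptor, glycine, acetylcholine or TRP gene was found by the rule.

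RNA from the cerebellum of each of 66 C57BL/6 mice was hybridised to a nylon filter of cDNA probes of its own. Restricted (CR) mice received a fortified feed at 60%, reached in steps in young adulthood, and ad libitum (AL) mice regular feed at 100%. Of the adult mice, 9 CR and 10 AL mice were 6 months old, 10 of each diet were 16 months old, and 8 CR and 9 AL mice were 24 months old, and a further 5 AL mice were 17-21 days and 5 were 33-44 days old. At 24 months the CR males were all 673 days old and the AL males 719 to 743 days, so in males diet and age cannot be told apart there. Values are Z scores: 0 is the mean and 1 the SD of all probes of an array, so differences are in units of that SD, and folds cannot be recovered. Because a score also carries how much of a spotted clone binds label, the score of a gene was compared across mice and never with that of another gene. In whole tissue, fewer cells of a type and less RNA per cell cannot be told apart.

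Fast signalling in the cerebellum rests on these protein families. Potassium channels set the resting potential and repolarise the cell after each spike, sodium channel beta subunits tune the channels that start the spike, and Purkinje cells fire as pacemakers whose rhythm depends on calcium-activated potassium channels. Receptors for GABA carry the inhibition that Golgi, basket and stellate cells impose on granule and Purkinje cells, and kainate receptors are one of the glutamate receptor classes.

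Probe names limit what can be read from a single gene. Of the arrays, 3 had a median correlation with the others under 0.9 and were left out (the second male and the second female of the CR mice of 16 months and the second CR female of 24 months), which left 63. Over 561 genes with several probes, the mean Z scores of the first and second probe correlated across genes by only 0.114, and the female-specific transcript Xist averaged -0.983 ± 0.153 in 28 adult females and -1.02 ± 0.164 in 25 adult males (SD). Since a score also carries how much of a spotted clone binds label, the correlation across genes cannot tell wrong names from clones that bind unequally. The names were not checked further, and every gene name below stands for the probe as annotated. The expected cell types could be checked on few probes: of the marker lists, Calb1 and Car8 (Purkinje cells), Slc1a3 (astroglia), Hba-a1 and Alas2 (blood) and C1qa (microglia) were measured, and no listed marker of granule cells, oligodendrocytes, vessels or choroid plexus was.

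Promoter sequence is shown for some genes named in the results whose annotated start matches a RefSeq window. One is Kcnq1ot1, whose averaged scores correlated by -0.739 with those of its host gene Kcnq1 within groups. Kcnq1 correlated by -0.707 with Kcnmb1 as well, so this was not particular to the host gene. The others are Kcnd2, the member with the smallest p for diet, and its paralogue Kcnd3. RefSeq (GRCm38.p6) held a promoter window for 10 of the 15 members. Each run below is the 250 bases before the start, 5′ to 3′ on the gene's strand, searched on both strands. Capitals mark the CCAAT box in Kcnq1ot1. In Kcnd2 they mark the GC box, which was searched as GGGCGG and does not overlap the other motif. They lie at chr7:143296548-143296797 (minus strand), chr6:21215096-21215345 (plus strand) and chr3:105451640-105451889 (plus strand).
Kcnq1ot1: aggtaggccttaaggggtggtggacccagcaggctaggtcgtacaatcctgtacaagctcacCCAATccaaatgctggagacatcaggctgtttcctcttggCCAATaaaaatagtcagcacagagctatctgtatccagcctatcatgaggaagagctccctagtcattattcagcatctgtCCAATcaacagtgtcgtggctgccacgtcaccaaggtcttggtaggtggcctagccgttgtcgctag
Kcnd2: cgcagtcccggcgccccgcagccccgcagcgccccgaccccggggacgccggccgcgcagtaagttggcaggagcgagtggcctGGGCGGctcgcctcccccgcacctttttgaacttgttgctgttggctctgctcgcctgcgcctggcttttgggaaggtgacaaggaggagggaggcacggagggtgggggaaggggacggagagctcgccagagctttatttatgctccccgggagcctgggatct
Kcnd3: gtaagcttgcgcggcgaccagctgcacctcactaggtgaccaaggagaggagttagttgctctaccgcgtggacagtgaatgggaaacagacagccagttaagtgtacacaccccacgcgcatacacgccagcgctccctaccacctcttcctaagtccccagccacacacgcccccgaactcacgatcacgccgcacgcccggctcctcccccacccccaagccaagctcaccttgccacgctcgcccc

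The Kcnq1ot1 window held 3 CCAAT boxes and no GC box. Among 32851 promoter windows of that length, 33.8% held at least 1 CCAAT box and 2.79% held 3 or more. The Kcnd2 window held 1 GC box, which 32.7% of windows have, and the Kcnd3 window held neither motif. Kcnd2 and Kcnd3 had 22 and 18 CpG dinucleotides against 5 in Kcnq1ot1 and a median of 6 over all windows. These are matches of letters only, and the arrays did not measure binding.

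**Figure D1:**
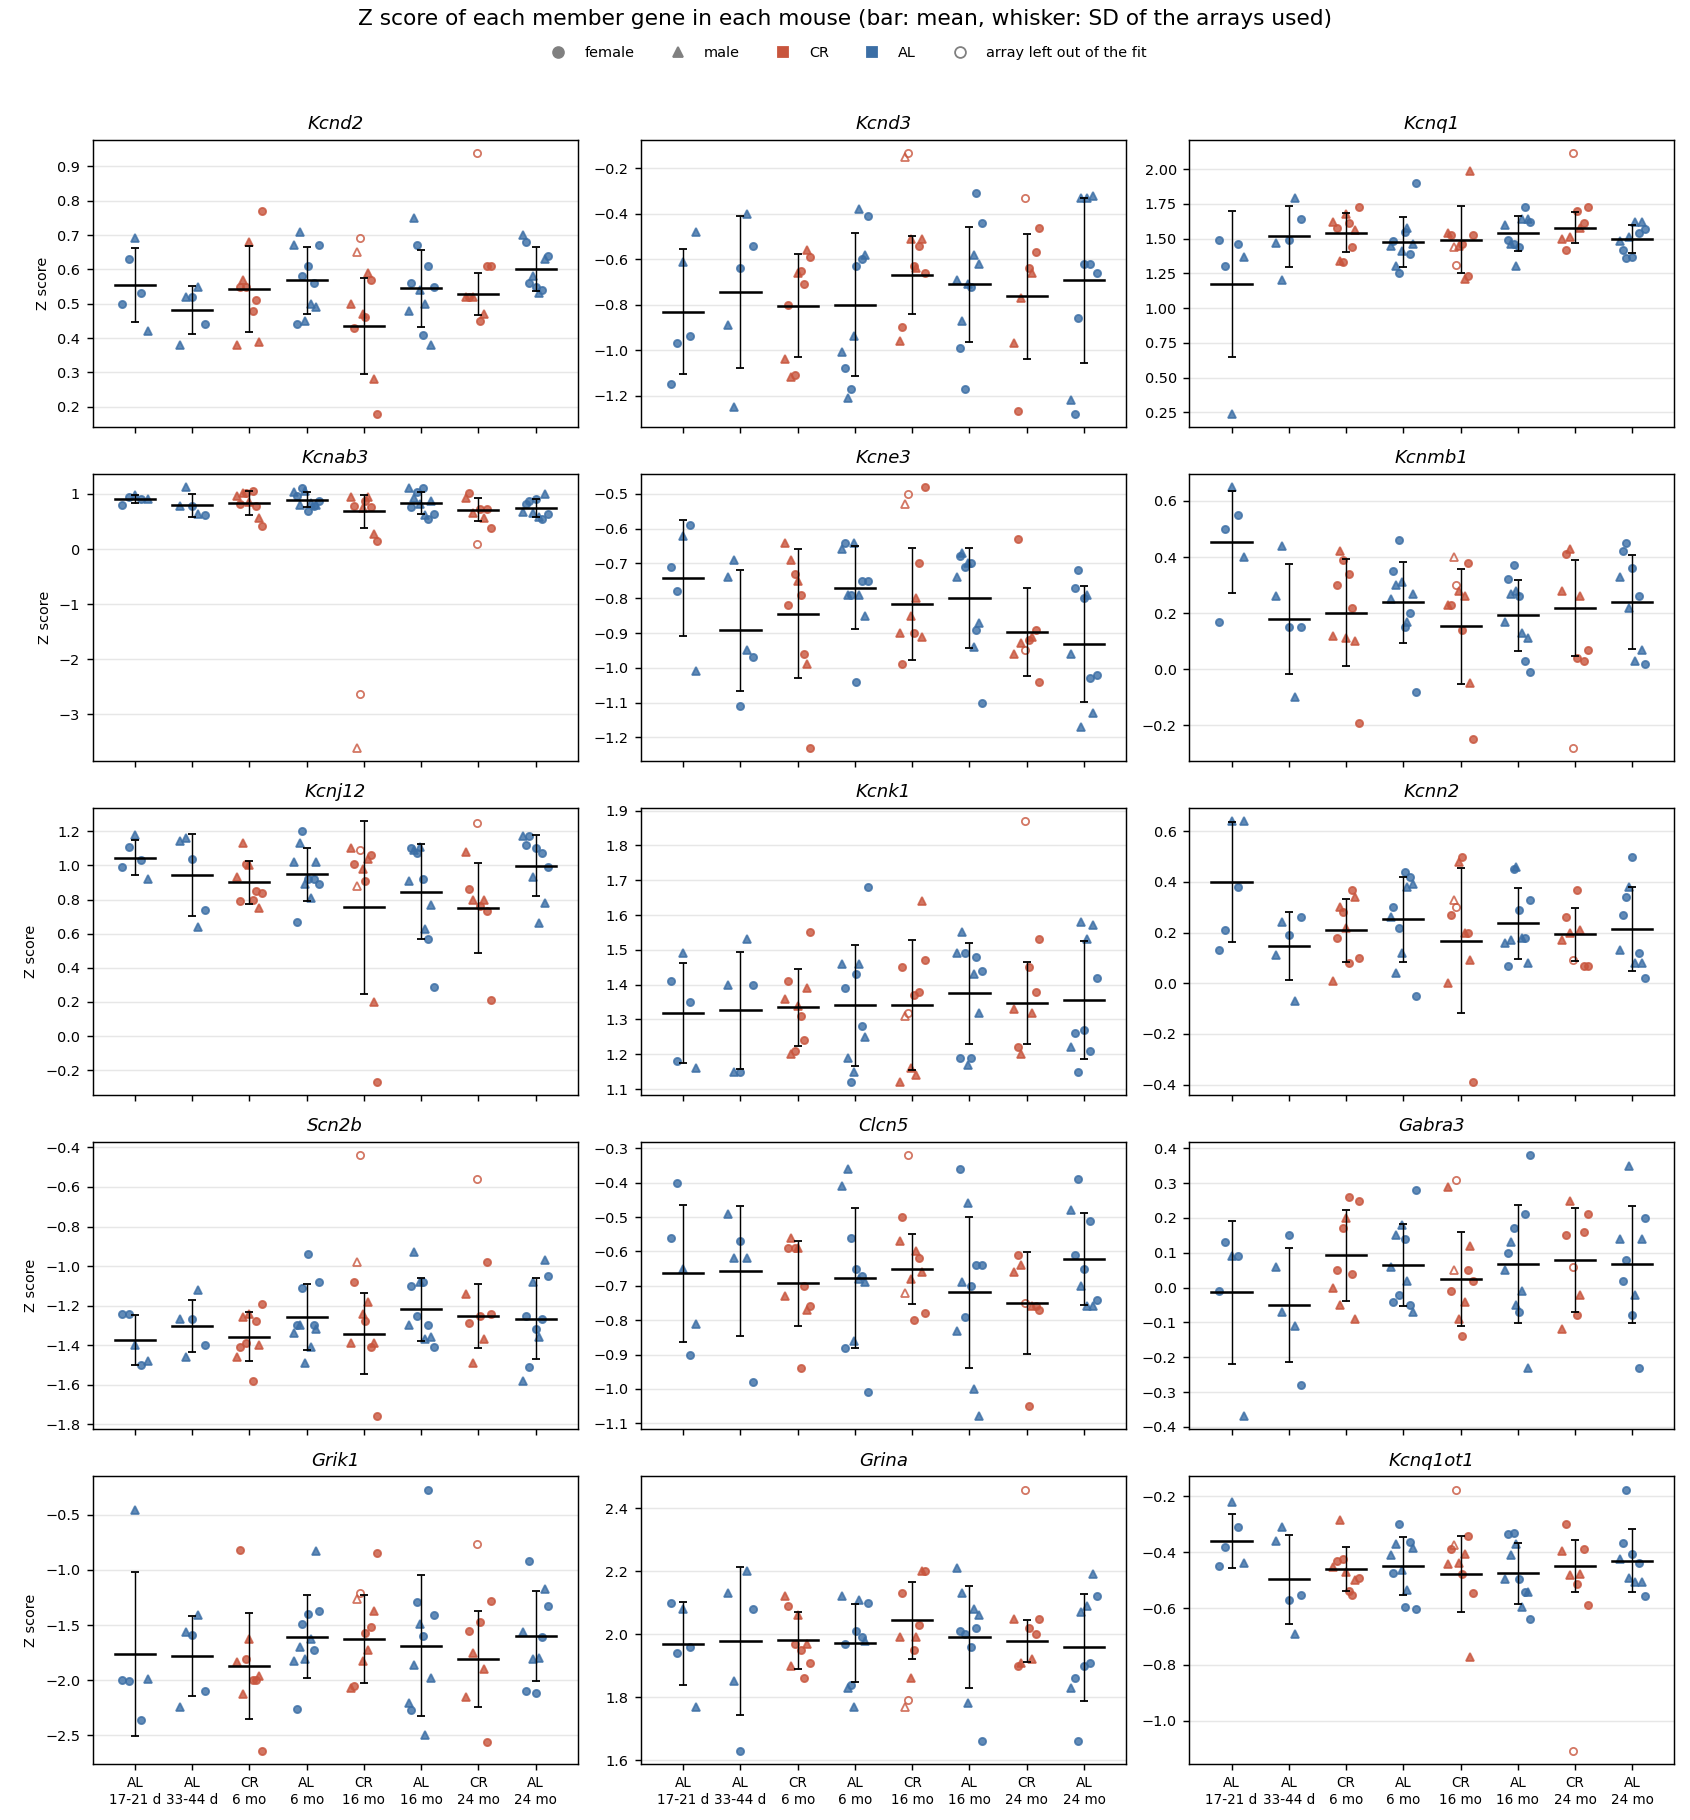
Z score of each of the 15 genes (1 panel each, own vertical scale) in every mouse, by diet and age, with circles for females, triangles for males and open symbols for the 3 arrays left out. Group means (bars, whiskers SD) stay within a narrow band in most panels, Kcnq1 has a single mouse at 0.24 among the AL mice of 17-21 days, and Kcnab3 lies at -3.61 and -2.64 on both arrays left out at 16 months.

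None of the 15 genes passed an adjusted p of 0.05 (limma, Benjamini-Hochberg over 7782 features) in any of 16 comparisons of age, diet and sex. The same held for nearly all other features: 0% were called in 14 comparisons, 0.411% for AL mice of 6 months against 17-21 days and 0.308% for AL mice of 33-44 against 17-21 days. At an unadjusted p under 0.05, the counts of members were 0 or 1 in each adult comparison, 2 for 6 months against 17-21 days and 3 for 33-44 against 17-21 days. The adult comparisons had 0.655% to 3.92% of all features at that p, where 5% are expected with no change. This fit held no term for the runs of array numbers described below, and the part of the runs in these shares was not tested. Counts of features called with such a term are not given here. The adult data bounded the differences: for AL mice of 24 against 6 months, the 95% interval of a member was its difference ± 0.154 Z units at the median, ranging from ± 0.106 for the steadiest probe to ± 0.425 for Grik1, close to the ± 0.153 of all features.

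Age was compared first between mice of 24 and 6 months. Of the 15 genes, 9 had a difference above 0 and 6 below in AL mice (median 0.0102, against -0.000375 over all features), and 7 above and 8 below in CR mice (median -0.008, against 0.00125). At an unadjusted p under 0.05, 1 member was found in AL mice (2.49% of all features) and 0 in CR mice (1.12% of all features). Over both diets the count was 1, with 2.66% of features.

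Kcne3 was the member with the smallest p for adult age. Its product is a single-span partner that holds the Kcnq1 pore open, known best from gut epithelium. Kcne3 averaged -0.836 over the 63 arrays, while the study's own criteria ask for a mean score above 0 and did not take it. In AL mice, Kcne3 scored -1.17 at the lowest, -0.96 at the median and -0.72 at the highest at 24 months (n = 9), against -1.04, -0.77 and -0.64 at 6 months (n = 10). The ranges overlapped, yet the values at 24 months lay lower in the distribution. The difference was -0.170 ± 0.0709 (SE; 95% interval -0.312 to -0.0281; limma adjusted p = 1). Leaving out single mice moved it between -0.207 and -0.144, and without AL male 2 of 24 months its unadjusted p was above 0.05.

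In CR mice the same gene scored -1.04, -0.92 and -0.63 at 24 months (lowest, median and highest, n = 7), against -1.23, -0.79 and -0.64 at 6 months (n = 9), a difference of -0.0649 (95% interval -0.222 to 0.0919). The change with age differed between the diets by 0.105 ± 0.105 (SE; 95% interval -0.106 to 0.317). Over both diets the difference was -0.118 (95% interval -0.223 to -0.0118; adjusted p = 1), and in females alone it was -0.019, with an unadjusted p above 0.05. By sex, the AL males of 24 months scored -0.96, -1.17, -0.79 and -1.13, against -0.66, -0.79, -0.64, -0.79 and -0.85 at 6 months. The AL females scored -0.77, -0.72, -0.80, -1.03 and -1.02 at 24 months, against -0.64, -0.79, -1.04, -0.75 and -0.75 at 6 months. Of the 4 males of 24 months, 1 lay within the range of the males of 6 months, whereas all 5 females lay within that of the females of 6 months, and a difference between the sexes in this change was not tested.

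Kcnab3, a cytosolic beta subunit of voltage-gated potassium channels, came next for adult age. Its scores were 0.55, 0.68 and 1.00 in AL mice of 24 months and 0.70, 0.855 and 1.10 in those of 6 months (lowest, median, highest). The difference was -0.151 in AL mice (95% interval -0.344 to 0.0421), -0.122 in CR mice (-0.334 to 0.0909) and -0.136 over both diets (-0.280 to 0.00729), with overlapping AL groups. The other auxiliary subunit, Kcnmb1, which makes the large calcium-activated channel of smooth muscle more sensitive to calcium, averaged 0.240 ± 0.166 at 24 months and 0.238 ± 0.144 at 6 months in AL mice (SD, n = 9 and 10).

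The intermediate age added little. For 16 against 6 months, no member reached an unadjusted p of 0.05 in AL mice (1.34% of features did) or in CR mice (2.13%), and for 24 against 16 months none did in AL mice (3.92%) or CR mice (2.51%). The member nearest to the threshold was Kcne3 in AL mice of 24 against 16 months (-0.140, 95% interval -0.282 to 0.00194), followed by Kcnd2 in CR mice of 16 against 6 months (-0.103, -0.216 to 0.00877). The change from 6 to 24 months differed between the diets for 0 members, against 0.9% of features, and the largest such difference was that of Kcnj12 (-0.179, 95% interval -0.539 to 0.181).

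**Figure D2:**
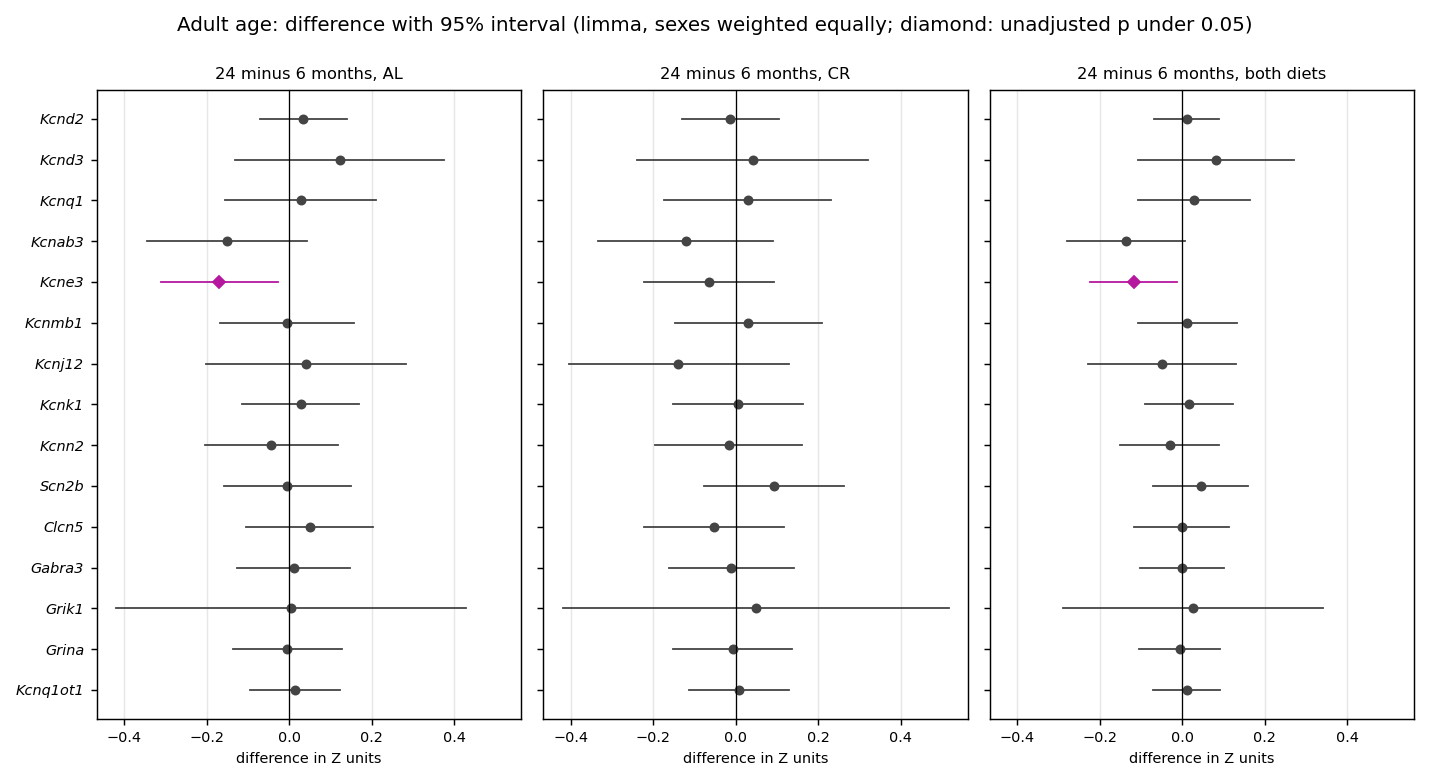
Difference between 24 and 6 months in Z units (horizontal axis) for each gene, with its 95% interval, in AL mice, CR mice and both diets together. Only Kcne3 has an interval that leaves out 0, in the AL and in the pooled panel (diamonds), and no gene passed after adjustment.

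Among voltage-gated pores, Kcnd2 and Kcnd3 carry the fast A-type current that delays and spaces spikes, and both are known in cerebellar granule cells. Kcnd2 was the steadiest channel gene: its within-group SD was 0.109, which is smaller than that of all but 7.98% of features, and its condition means lay between 0.435 and 0.601. Kcnd3 was far more variable (SD 0.285, with 93.3% of features steadier). For AL mice of 24 against 6 months the difference was 0.0340 for Kcnd2 (95% interval -0.0722 to 0.140) and 0.122 for Kcnd3 (-0.132 to 0.376).

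Caloric restriction was compared at each adult age. Differences lay below 0 in CR mice for 12 of the 15 genes in mice of 6 months and 11 in mice of 16 and of 24 months. Over the adult ages, which is the mean of these same comparisons and no further count, they lay below 0 for 13. The median there was -0.0236 against 0.00179 over all features, and the share of all features below 0 is not given here. The medians are far smaller than the interval of a single gene (± 0.093 over the adult ages), and several members varied together across arrays. Members at an unadjusted p under 0.05 numbered 0 at 6 months (0.655% of features), 1 at 16 months (2.13%), 0 at 24 months (2.25%) and 1 over the adult ages (1.64%).

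That member was Kcnd2 both times. At 16 months it scored 0.18, 0.465 and 0.59 in CR mice (lowest, median, highest, n = 8) and 0.38, 0.545 and 0.75 in AL mice (n = 10). The 2 lowest CR mice, female 5 at 0.18 and male 5 at 0.28, lay under every AL mouse and the remaining 6 within the AL range. The difference was -0.110 ± 0.0545 (SE; 95% interval -0.219 to -0.000726; limma adjusted p = 1). Without CR female 5 of that age it was -0.0717, on all 66 arrays -0.063, with array weights -0.0436 and with the run of array numbers as a term -0.0934, each with an unadjusted p above 0.05.

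At 6 months Kcnd2 averaged 0.542 ± 0.126 in CR mice and 0.568 ± 0.0966 in AL mice, and at 24 months 0.529 ± 0.0620 in CR mice and 0.601 ± 0.0631 in AL mice (SD). The CR mean was the lower at each adult age. Over the adult ages the difference was -0.0720 ± 0.0319 (SE; 95% interval -0.136 to -0.00797; adjusted p = 1). Without CR female 5 of 16 months it was -0.0592, in females alone -0.0655, with array weights -0.0473 and on all 66 arrays -0.0433, each with an unadjusted p above 0.05.

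The gene Kcnj12, an inward rectifier that stabilises the resting potential, came second in the pooled diet comparison. At 24 months it scored 0.21, 0.80 and 1.08 in CR mice (n = 7), against 0.66, 1.07 and 1.17 in AL mice (n = 9). At 16 months CR female 5 and CR male 5 scored -0.27 and 0.20 while the other 6 CR mice lay between 0.91 and 1.10, and the AL mice lay between 0.29 and 1.11. The difference was -0.221 at 24 months (95% interval -0.487 to 0.0457), -0.0922 at 16 months (-0.341 to 0.156) and -0.118 over the adult ages (-0.264 to 0.0275). Without CR female 5 of 16 months the last was -0.0656, and with array weights -0.0362. Without CR female 5 of 24 months, who scored 0.21 and stood apart in her group, the difference at 24 months was -0.149. Its unadjusted p was then above 0.05 (limma). The fits in females alone and with the run of array numbers as a term, given next, include this mouse. In females alone, whose ages overlap between the diets, the difference was -0.450 at 24 months (adjusted p = 0.739) and -0.208 over the adult ages (adjusted p = 1), both at an unadjusted p under 0.05. The lowest mice of both ages, AL female 5 of 16 months at 0.29 included, had arrays in the last of 5 runs of array numbers, as did both low CR mice for Kcnd2. With the run as a term the difference of Kcnj12 was -0.260 at 24 months and -0.130 over the adult ages, both at an unadjusted p under 0.05 (adjusted p = 0.993 and adjusted p = 1).

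Kcnab3 shows what the arrays left out would have done. On those of CR male 2 and CR female 2 of 16 months it scored -3.61 and -2.64, against 0.15 to 0.95 in the other 8 CR mice and 0.54 to 1.10 in AL mice of that age. Its probe is the 8th in each run of 22 probe numbers, and all probes in that place averaged -2.70 and -2.69 on these 2 arrays and 0.309 on the others. With all 66 arrays the difference between CR and AL mice of 16 months was -0.917 (adjusted p = 0.40), and with the 63 arrays -0.155 (95% interval -0.353 to 0.0437).

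For the remaining channels, diet left the scores within their spread. Scn2b, a beta subunit linked to the pore of sodium channels, differed by -0.0724 over the adult ages (95% interval -0.165 to 0.0206), with -1.341 ± 0.205 in CR mice and -1.218 ± 0.160 in AL mice at 16 months (SD). Kcnk1, a leak channel, averaged 1.341 ± 0.186 in CR mice and 1.375 ± 0.145 in AL mice at 16 months, and its difference over the adult ages was -0.0236 (95% interval -0.110 to 0.0625). Kcnn2, the small-conductance channel that shapes Purkinje cell pacemaking, differed by -0.0421 (95% interval -0.139 to 0.0552). Clcn5, which exchanges chloride for protons in endosomes, differed by -0.0197 (95% interval -0.113 to 0.0731).

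The receptor subunits differed in their spread between mice. Gabra3, an alpha subunit of the GABA-A receptor, had a within-group SD of 0.148, and 33.9% of features varied less. Its condition means lay between -0.050 and 0.0922, and its diet difference was -0.00847 (95% interval -0.0915 to 0.0746). Grik1, a kainate receptor subunit, had a within-group SD of 0.482, and 98.8% of features varied less. Its scores ran from -2.64 to -0.27 over the 63 arrays. Its diet differences of -0.267 at 6 months, 0.0643 at 16 months and -0.224 at 24 months were the largest of the members at 6 and 24 months, and their 95% intervals all held 0.

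**Figure D3:**
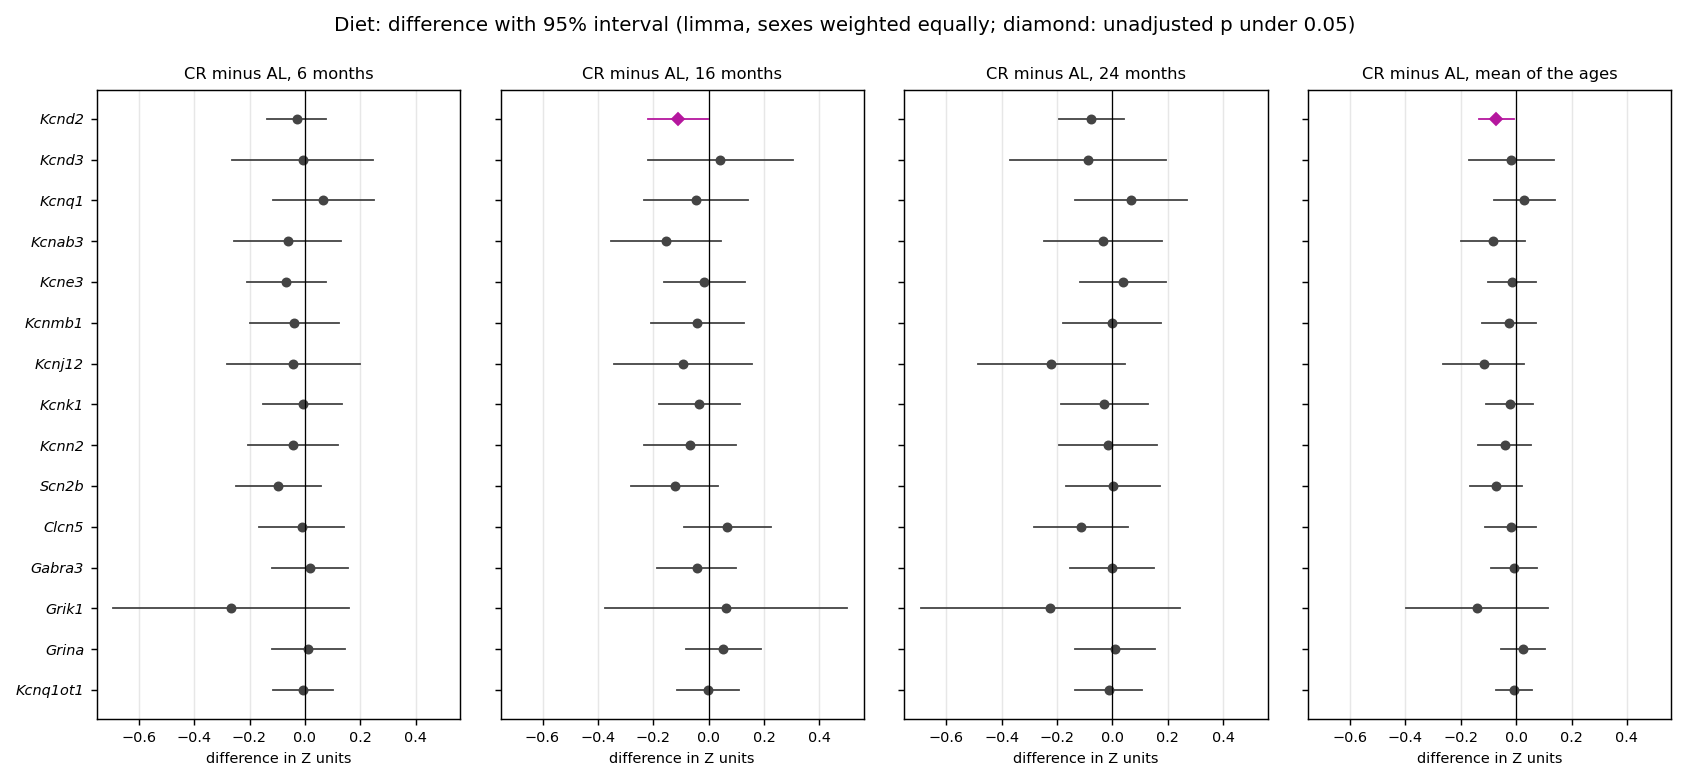
Difference between CR and AL mice in Z units (horizontal axis) for each gene with its 95% interval, at 6, 16 and 24 months and as the mean of the 3 ages. Kcnd2 alone has intervals that leave out 0, at 16 months and in the mean (diamonds), Grik1 has the widest intervals, and most points lie slightly left of 0.

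The young AL mice gave the largest differences among the members. For 6 months against 17-21 days, 2 members had an unadjusted p under 0.05 (10.7% of features), for 33-44 against 17-21 days 3 members (13.4% of features), and for 6 months against 33-44 days 0 members (1.72% of features). The first 2 of these comparisons share the same 5 mice of 17-21 days.

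Kcnq1, the pore of the slow cardiac potassium current, scored 1.47, 1.20, 1.79, 1.49 and 1.64 in mice of 33-44 days, against 1.49, 1.30, 0.24, 1.46 and 1.37 in mice of 17-21 days. At 6 months it scored 1.25, 1.455 and 1.90 (lowest, median, highest, n = 10). A single mouse, male 1 of 17-21 days, stood apart at 0.24, and the other 4 lay inside the range of both older groups. The difference was 0.366 ± 0.110 for 6 months against 17-21 days (SE; limma adjusted p = 0.155) and 0.415 for 33-44 against 17-21 days (adjusted p = 0.14). Leaving out either male leaves 1 male of that age, who is then assumed to vary like the other groups. Without male 1 the difference was 0.0837 and 0.132, both with an unadjusted p above 0.05. Without male 2 it was 0.649 (adjusted p = 2.12e-05) and 0.697 (adjusted p = 4.66e-05).

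The array of that male had a median correlation of 0.921 with the others, the lowest of those used. Without it, 1 feature instead of 32 was called for 6 months against 17-21 days, and 1 instead of 24 for 33-44 against 17-21 days. The Purkinje marker Car8 was also lowest in this mouse, at -0.11 against 0.63 to 0.97 in the other 4 mice of 17-21 days, and Calb1 was highest, at 0.315 against 0.01 to 0.20. The part of this array in the other differences from 17-21 days was tested only by leaving it out.

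Kcnmb1 scored 0.26, 0.44, -0.10, 0.15 and 0.15 in mice of 33-44 days, against 0.17, 0.50, 0.55, 0.65 and 0.40 in mice of 17-21 days. Only 2 of the older mice lay above the lowest of the younger ones. The difference was -0.291 (95% interval -0.517 to -0.0646; adjusted p = 0.266), and -0.228 for 6 months against 17-21 days (-0.422 to -0.0332; adjusted p = 0.439). Without male 1 of 17-21 days these were -0.228 and -0.165, both with an unadjusted p above 0.05.

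Kcnn2 scored 0.11, 0.24, -0.07, 0.19 and 0.26 in mice of 33-44 days, against 0.13, 0.21, 0.38, 0.64 and 0.64 in mice of 17-21 days. Here 3 of the younger mice lay above all of the older ones. The difference was -0.281 (95% interval -0.507 to -0.055; adjusted p = 0.276), and also -0.281 without male 1. For 6 months against 17-21 days it was -0.188 (-0.382 to 0.00626). Over all ages, Kcnn2 averaged 0.374 ± 0.160 in the third run of array numbers, which held no mouse of 33-44 days. It averaged 0.0758 ± 0.203 in the last run, which held no mouse of 17-21 days (SD, n = 13 and 12). The part of the runs in the Kcnn2 difference was not tested. Between 6 months and 33-44 days the members with the smallest p were Kcne3 (0.147, 95% interval -0.0246 to 0.318) and Gabra3 (0.118, -0.0484 to 0.283). Without male 1 of 17-21 days, the Gabra3 difference for 6 months against 17-21 days was 0.215, against 0.100 ± 0.0827 (SE) with him. The only male of that age then left, male 2, scored -0.37 for Gabra3 and stood apart in his age group. He alone then gave the male mean of that age. Gabra3 averaged -0.014 ± 0.206 at 17-21 days, -0.050 ± 0.165 at 33-44 days and 0.065 ± 0.117 at 6 months (SD), and Grina averaged 1.970 ± 0.132, 1.978 ± 0.235 and 1.972 ± 0.124 at the same ages.

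**Figure D4:**
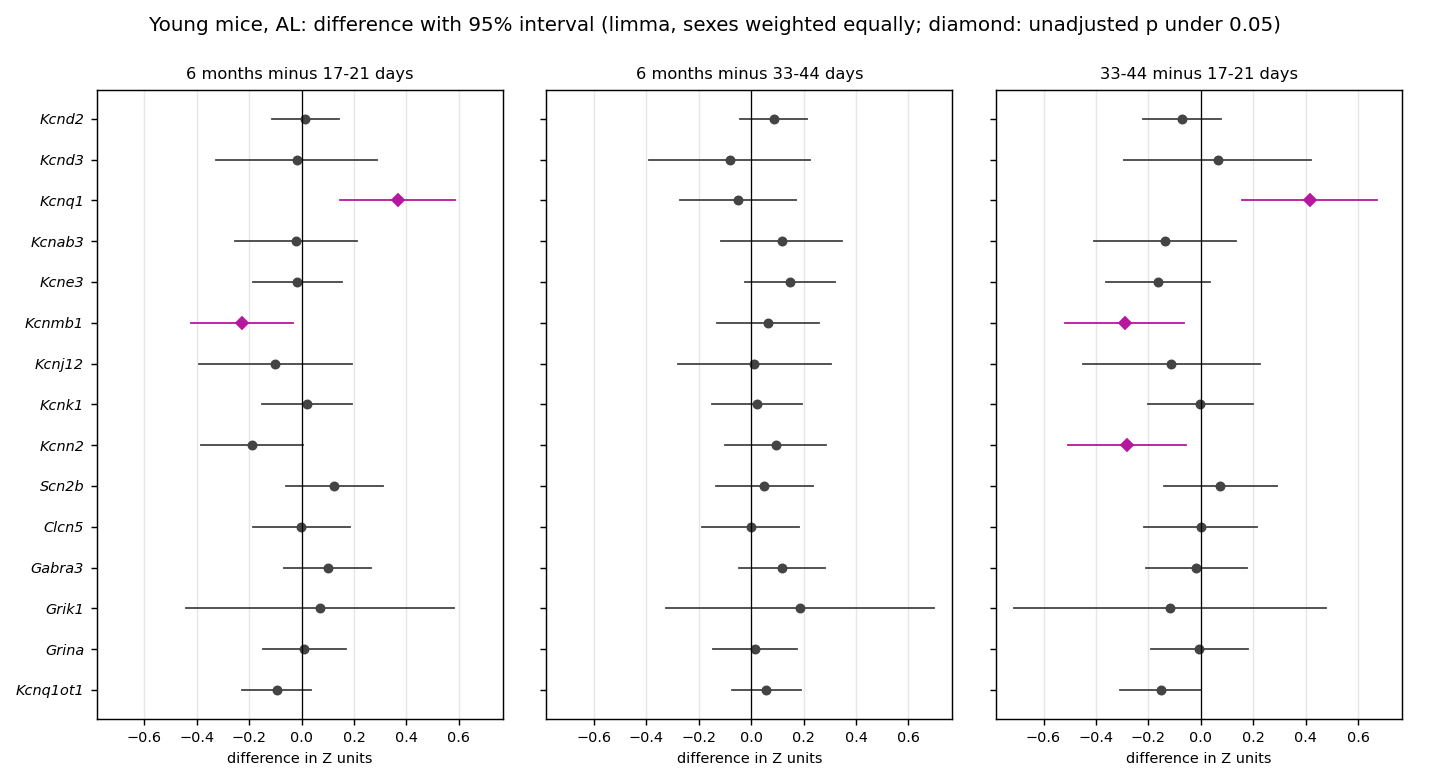
Differences in Z units (horizontal axis) among AL mice of 6 months, 33-44 days and 17-21 days for each gene with its 95% interval. Kcnq1 lies above 0 and Kcnmb1 below 0 in both comparisons with 17-21 days, Kcnn2 lies below 0 between the young groups (diamonds), and no gene passed after adjustment.

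Between the sexes the members differed by a median of 0.0198 in size, against 0.022 over all features, both the smallest of the 16 comparisons. The intervals were also the narrowest here and in the pooled diet comparison (± 0.093 at the median member). The sizes of the comparisons therefore cannot be ranked on equal terms. Between 28 adult females and 25 adult males, 0 members and 1.29% of features had an unadjusted p under 0.05. The largest member difference was 0.171 ± 0.128 for Grik1 (SE; 95% interval -0.0852 to 0.427), and the X-linked genes Clcn5 and Gabra3 differed by -0.0141 ± 0.0463 and 0.0236 ± 0.0414 (SE).

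Across mice, several members varied together within their groups. After removal of the group means (63 arrays), Kcnmb1 and Kcnq1ot1 correlated by 0.765, Kcnj12 and Kcnq1ot1 by 0.733, Grina and Kcnk1 by 0.714 and Kcnab3 and Kcnj12 by 0.691. In the opposite direction, Kcnq1 and Kcnq1ot1 correlated by -0.739 and Kcnmb1 and Kcnq1 by -0.707. Kcnq1ot1 is the imprinted antisense transcript that starts within Kcnq1 and lies wholly inside it (GRCm38.p6, chr7:143213111-143296547 within chr7:143106877-143427050). These are spans of whole genes. Whether the spotted cDNA of one shares sequence with the other was not tested, since the clone sequences were not at hand. These correlations are descriptive, since the arrays fall into runs of array numbers, and with the run removed the 6 values were 0.539, 0.556, 0.666, 0.493, -0.621 and -0.505. Of the 105 pairs of members, 14.3% were beyond 0.5 in size, against 16.2% of all pairs of features, and the median size was 0.268, against 0.252.

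The value of Kcnq1ot1 is itself a mean of 3 probes that did not follow each other. Their means were -0.304, 0.174 and -1.23, and after removal of group means they correlated by 0.264, -0.0228 and -0.195 in pairs. For the diet difference in the change from 6 to 24 months they gave -0.192 ± 0.0848, -0.059 ± 0.186 and 0.232 ± 0.102 (SE), whereas the averaged value was -0.00631 (95% interval -0.169 to 0.157). The averaged gene is there the mean of probes with opposite signs. The correlations of Kcnq1ot1 with other members above also rest on this average, and those of its single probes are not given here.

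Much of the variation followed the array numbers in the labels. These fall into 5 runs within which no group of sex, age and diet has a second mouse, so adult ages, diets and sexes are nearly balanced over them, while the young mice are spread over 3 or 2 runs per group. What the runs were in the laboratory is unknown. The runs held 32% of the within-group variation at the median member and 24.1% at the median feature. Kcnd3 was the extreme case with 72.3%: it averaged -1.02 ± 0.172 and -1.05 ± 0.169 in the first 2 runs and -0.661 ± 0.158, -0.544 ± 0.125 and -0.516 ± 0.111 in the last 3 (SD, n = 14, 10, 13, 14 and 12). Kcnmb1 (59.4%), Kcnq1ot1 (47.5%), Kcnj12 (44.5%), Kcnab3 (39.3%) and Kcnq1 (35.4%) followed. Kcnj12 averaged 0.592 ± 0.395 in the last run and 0.846 to 1.09 in the others. At the other end, Scn2b (1.14%), Gabra3 (7.4%) and Kcnd2 (9.28%) hardly moved with the runs.

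With the run as a term in the model, no member was called in any comparison. The diet difference of Kcnd2 over the adult ages was then -0.0695, the difference of Kcne3 between AL mice of 24 and 6 months -0.161, and the differences of Kcnq1 and Kcnmb1 between 6 months and 17-21 days 0.324 and -0.185. These 4 kept their sign and an unadjusted p under 0.05, whereas the difference of Kcnd2 at 16 months did not keep its unadjusted p.

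**Figure D5:**
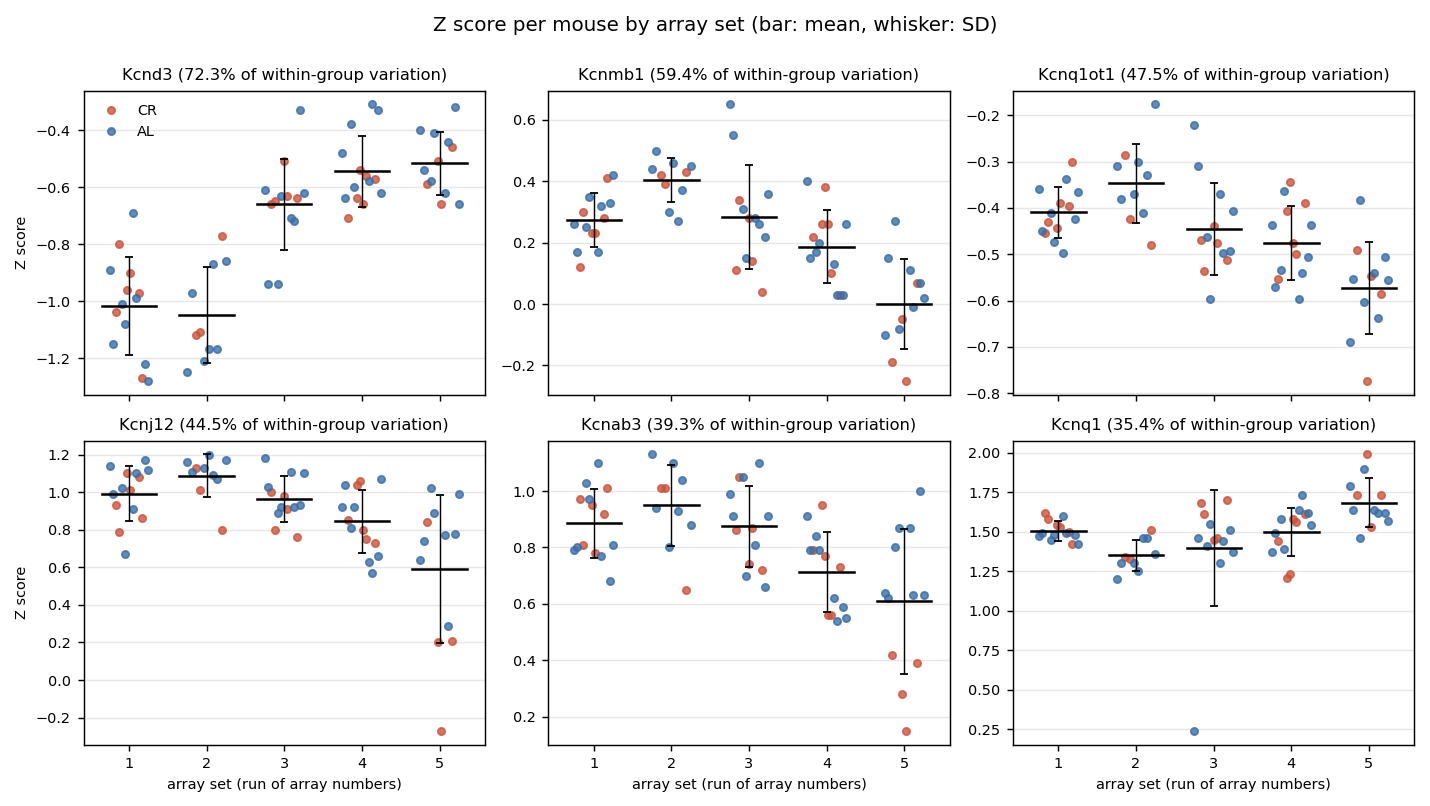
Z score of 6 genes per mouse by run of array numbers (horizontal axis, runs 1 to 5, 63 arrays), with CR and AL mice in colour, bars for the means and whiskers for the SD. Kcnd3 steps up after the second run, Kcnmb1, Kcnq1ot1, Kcnj12 and Kcnab3 are lowest in the last run, and both diets follow the same course.

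Partners of channels and receptors at the synapse (scaffolds, adhesion molecules, receptor modulators, calmodulin and glutamate transporters) were examined from a list of 81 genes, of which 15 were measured (Dlg1, Dlg2, Dlg3, Homer2, Gripap1, Cask, Ank2, Ank3, Nlgn2, Kctd12, Slc17a6, Slc1a3, Agrn, Lynx1 and Calm3). None passed adjustment in any comparison (limma). The scaffold Ank3, which holds sodium channels at the axon initial segment, differed by 0.154 ± 0.0749 between AL mice of 24 and 6 months (SE; adjusted p = 1), the only 1 of the 15 at an unadjusted p under 0.05 there, where 2.49% of all features were. Between 6 months and 17-21 days, 4 of the 15 were lower at an unadjusted p under 0.05 (Dlg2, Ank3, Nlgn2 and Kctd12) and none higher, where 10.7% of all features were at that p. Both the count and the share include male 1 of 17-21 days, on whose array most calls of that comparison depended. The partners were not counted without him.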

How the data were processed

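Cerebellar RNA of each mouse was labelled with radioactive dCTP (33P per the labels, 32P per the study's methods) and hybridised to the B filter of the NIA mouse cDNA set. The authors extracted spot intensities and deposited a Z score per probe and array (each array centred at 0 with an SD of 1). The sources used here do not give the log and background steps. The highest array number in the labels is 67, and 1 array was not analysed here. Precision rests on the number of arrays, since the scores carry no signal over background.

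Probes with 1 symbol in the platform annotation (4875 probes, while 224 held several and 3349 none) were averaged by gene and every other probe kept as a feature of its own. Arrays with a median correlation under 0.9 were left out, and a mean per group of sex, age and diet (16 groups, 47 residual degrees of freedom) was fitted with limma 3.58.1 in R 4.3.3, weighting the sexes equally. All tests were two-sided, and p-values were adjusted by Benjamini-Hochberg over all features. The fitting code was tested on simulated data. Each array is a different mouse, so p-values measure the spread between mice and hybridisations together. The members, the gene lists and the tests were chosen with earlier results of these data known. Members named with values were those called in a comparison, or the 2 with the smallest p where none was, the 2 per class with the widest range of age means, the members commonly described in cerebellum, and members with a mouse standing apart or probes that disagreed. The study's own criteria (a Z-ratio of 1.5, a mean score above 0 and an unadjusted p under 0.05) were an alternative, as were all 66 arrays, the array run as a term, a correction by probe position, quantile normalization, array weights, single probes, a filter on mean score, separate fits, females alone and leaving out each mouse. Gene positions came from RefSeq (GRCm38.p6), where all 15 members matched.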

Additional observations from a re-analysis of the deposited data

Results flagged for a closer look

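Sets of mice of 1 gene, diet and age (both sexes together, 5 to 10 mice) were compared with Dixon's 95% limit. In 13 of 120 sets, a single mouse lay farther from the rest than this limit allows. Chance gives about 1 in 20 only for independent sets of like mice. The sets here share arrays between genes and pool sexes and runs of array numbers, so that share does not apply. Sets of the other features were not counted, so an excess particular to these genes was not tested. The values are Z scores. The part that the array of a mouse standing apart had in its value was not tested beyond leaving it out.

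For Kcnq1, male 1 of the AL mice of 17-21 days (0.24), female 5 of the AL mice of 6 months (1.90) and male 5 of the CR mice of 16 months (1.99) stood apart. For Kcnq1ot1, these were male 2 of the CR mice of 6 months (-0.287), male 5 of the CR mice of 16 months (-0.773), who was the same mouse as for Kcnq1, and female 2 of the AL mice of 24 months (-0.177). For Kcne3, female 1 of the CR mice of 24 months (-0.63) was high and female 3 of the AL mice of 6 months (-1.04) low. Clcn5 was low in female 3 of the CR mice of 24 months (-1.05) and in female 2 of the AL mice of 33-44 days (-0.98). Gabra3 was low in male 2 (-0.37) and Grik1 high in male 1 (-0.46) of the AL mice of 17-21 days, and Kcnj12 was low in female 5 of the CR mice of 24 months (0.21).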

How the results depend on the processing

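No difference of the members with the smallest p in each comparison changed direction under the alternatives run on them. Among the other members, leaving out male 1 of 17-21 days turned Gabra3 to 0.0975 (from -0.0175) and Grik1 to 0.266 (from -0.117) for 33-44 against 17-21 days, and Kcne3 to 0.0817 (from -0.0158) for 6 months against 17-21 days, none with an unadjusted p under 0.05, and Clcn5, Grina and Kcnk1, which lay within 0.005 of 0, also changed sign. The count of 0 members called held in 147 of the fits under other settings and not in 3, all with the criteria of the study, which need no adjusted p: they took 1 member for CR against AL mice over the adult ages (Kcnd2, with 0.321% of all features), 2 for 6 months against 17-21 days (Kcnmb1 and Kcnq1, 4.07%) and 3 for 33-44 against 17-21 days (Kcnmb1, Kcnn2 and Kcnq1, 4.1%). Leaving out single mice gave 0 to 1 members called for 6 months against 17-21 days and 0 to 1 for 33-44 against 17-21 days, the 1 being Kcnq1 without male 2 of 17-21 days, when 572 and 628 features were called. In all other comparisons it gave 0. The array weights did not converge fully. No paired analysis was possible because the labels number each mouse on its own and tie no mouse of a group to one of another. The run of array numbers was fitted as a block instead. The number of arrays limits what can be seen: for the member with the median error, a difference under 0.154 Z units between AL mice of 24 and 6 months lies within its interval.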
